A study of Mus musculus with 2 samples.

Results

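The genes described here encode the subunits of the receptors for glutamate, GABA and glycine, the main fast transmitters of the brain. They were chosen by symbol: every gene whose platform symbol begins with the stem of an AMPA, kainate, delta, NMDA or metabotropic glutamate receptor, or of a GABA-A, GABA-B or glycine receptor, and that has a probe set naming that gene alone. This gave 47 of 19938 genes, read by 49 probe sets, and 1 of the 47, Grid2ip, is by its name a protein that binds a delta receptor and not a subunit. Other members of these families were not analysed here, so no class is taken as complete. The cells were precursors cultured from mouse forebrain at E11.5 (strain Jcl:ICR). One group had been infected with an HMGN1 retrovirus and the other with a control retrovirus. Both were grown with FGF2 and EGF, replated 3 days after infection and then held for 1 day without these growth factors. HMGN1 is a nucleosome-binding protein of chromatin. Each group has 1 whole-transcript array of bulk RNA, so no test between the groups could be run, no value has a replicate error, and every difference describes these 2 RNA samples. The labels do not say what share of cells carried a virus. In bulk RNA, fewer cells of a type and less RNA per cell cannot be told apart.

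Ionotropic receptors are channels that open when the transmitter binds: AMPA, kainate and NMDA receptors are built from glutamate receptor subunits and pass cations, whereas GABA-A and glycine receptors are pentamers that pass chloride. Metabotropic glutamate receptors and GABA-B receptors act through G proteins. In the embryonic forebrain these receptors appear before synapses do, on precursors, on migrating young neurons and on cells of the oligodendrocyte lineage, and GABA depolarises many immature cells because their chloride is high.

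Values are linear probe set intensities. A difference is given as HMGN1 virus minus control virus of log2(intensity + 16), which understates the difference of dim genes. The detection floor is an intensity of 86.0 (mean of both arrays), which 95% of the 1035 probe sets for olfactory receptors do not reach. Intensity depends on the probes as well as on the RNA, so levels were not ranked between genes. Hmgn1 itself stood at 348 with the HMGN1 virus and 230 with the control virus, a log2 difference of 0.57. All 10 neural precursor markers analysed were above the floor, as were 13 of 14 neuron, 9 of 10 astrocyte and 11 of 11 oligodendrocyte lineage markers, against 1 of 8 microglia markers (Cx3cr1) and 2 of 8 endothelial, pericyte and red cell markers (Col1a1 and Pdgfrb). As a yardstick of scatter, the differences given by several probe sets for the same gene varied with an SD of 0.0891 (683 genes, called the probe set SD here), and the middle 95% of all 11330 genes above the floor lay between -0.21 and 0.23, with a median of 0.027. The SD over all these genes was 0.111, so exceeding the probe set SD does not set a gene apart from the rest. The probe set SD also comes from the same 2 arrays and holds no variation between cultures.

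Of the 47 genes, 27 were above the floor, 57.4% of them, beside 56.8% of all genes. Detection was as follows by class. All 4 AMPA receptor genes, 4 of 5 kainate, 3 of 6 NMDA and 4 of 7 metabotropic glutamate receptor genes were above it, as were Grid1, Grid2ip, 7 of 13 GABA-A and both GABA-B genes. By contrast 0 of 3 rho subunits of the GABA-A family and 1 of 5 glycine receptor genes were. In the comparison between viruses, 13 of the 27 were higher, 12 lower and 2 had the same value in both columns, where 60.1% of all genes above the floor were higher, 38.4% lower and 1.48% equal. It shifted with the settings, with 11 higher and 16 lower after centring all genes above the floor on their median, and 8 higher and 19 lower after the trend with gene span, described further on, was taken out. Centring by construction splits all genes above the floor about evenly. The gene span trend was fitted to these same genes, so taking it out also centres them near 0 by construction. Their shares were not counted with that trend taken out. The median difference of the 27 was 0, against 0.027 for all genes above the floor. It falls on the 2 genes with equal columns, and it was 0.017 with the probe sets of a gene averaged. The mean difference of the 27 was 0.026, against 0.023 for all genes above the floor. None of the 27 reached a log2 difference of 0.32 in size, the first of 2 fixed sizes, which 0.512% of all genes above the floor passed upward and 0.521% downward. At the smaller size of 0.20, 4 were higher (Gria3, Gabrb1, Grin2b and Grm2, against 4.25% of all genes) and 0 were lower (against 2.71%). Gabrb1 entered through the array where it was higher, its control virus value being under the floor. Without the 2 genes under the floor on 1 array, 3 of 25 were higher. These counts also depended on the setting, with 2 higher and 2 lower once the gene span trend was taken out, 4 higher and 1 lower without the intensity trend, and 2 higher and 0 lower with an offset of 64. After centring, 3 were higher and 0 lower. The shares of all genes past this size were not counted under these settings.

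**Figure D1:**
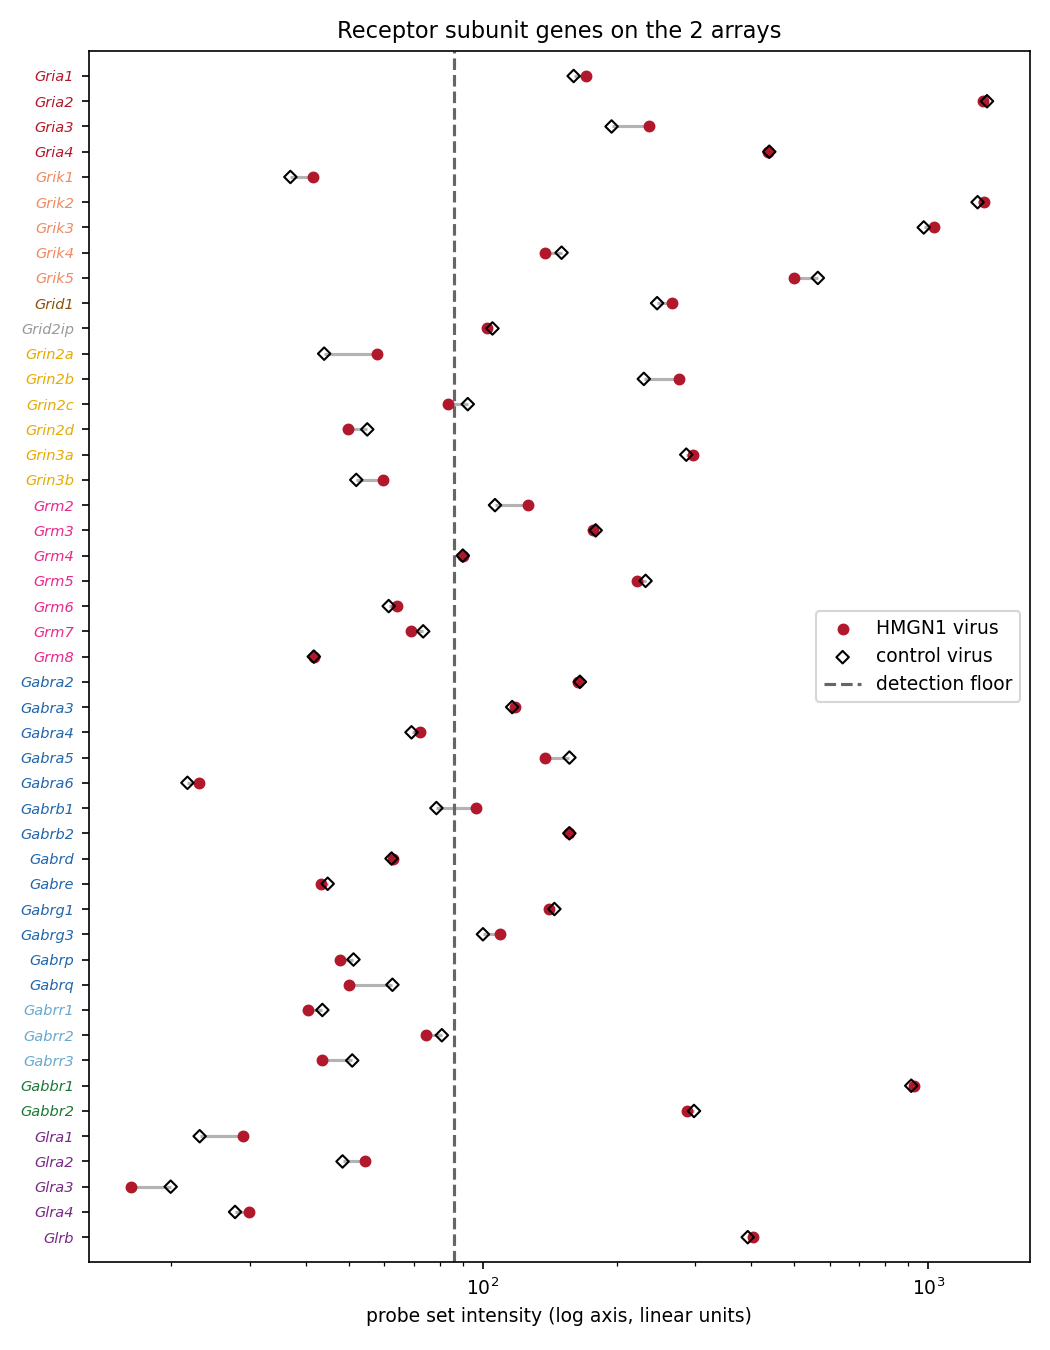
Probe set intensity (log axis) of the 47 genes with the HMGN1 virus (red circles) and the control virus (open diamonds), 1 array each, with the detection floor of 86.0 as a dashed line and gene names coloured by receptor class. The pairs of points of most genes nearly coincide, all 4 AMPA receptor genes lie right of the floor, and the glycine receptor alpha genes lie left of it.

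AMPA receptors carry most fast excitatory transmission, and Gria1 to Gria4 encode their 4 subunits. Gria3 had the largest difference of the 27 genes, with an intensity of 235 in HMGN1 virus cells and 194 in control virus cells, 1.20-fold on the offset scale (log2 0.26). The order at the top depended on the setting: Gabrb1 came first with quantile normalization (0.28), an offset of 1 (0.29) and the intensity trend removed (0.27), and Grm2 (0.21) with the gene span trend removed. It ranked 160 from the top among 11330 genes, so a further 159 genes had larger positive differences. Gria1 had 170 with the HMGN1 virus and 160 with the control virus (0.083). Gria2, whose edited subunit makes the channel nearly impermeable to calcium, had 1325 with the HMGN1 virus and 1353 with the control virus (-0.030). Gria4 had 437 with the HMGN1 virus and 439 with the control virus (-0.0079). Within this class Gria3 alone exceeded the probe set SD.

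The promoter of Gria2 is shown because it carries the one match, among the receptor genes, to the core of the RE1 element, the site of the repressor REST that silences neuronal genes outside neurons. In the rat, such an element has been described in this promoter. The core was searched as GCACC followed after 2 bases of any kind by GGACA, on both strands of the 250 bases before each RefSeq gene start (GRCm38.p6). It was in 45 of 32851 windows (0.137%) and in 1 of the 44 windows of the 36 receptor genes that have any. In Gria2 it lies 169 to 158 bases before the start and runs opposite to the gene, so it reads there as its reverse complement, in capitals (chr3:80802836-80803085, minus strand, GRCm38.p6). The match is a description of these letters and no evidence of binding.
Gria2: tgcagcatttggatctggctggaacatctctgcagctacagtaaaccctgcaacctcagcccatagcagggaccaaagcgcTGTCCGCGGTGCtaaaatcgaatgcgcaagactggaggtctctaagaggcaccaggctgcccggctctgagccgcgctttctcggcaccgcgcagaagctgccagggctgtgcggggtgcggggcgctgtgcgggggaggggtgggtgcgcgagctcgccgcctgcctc

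Kainate receptors modulate release and excitability, with Grik1 to Grik3 encoding the low-affinity and Grik4 and Grik5 the high-affinity subunits. Both high-affinity subunits were lower in HMGN1 virus cells. Grik5 had 499 with the HMGN1 virus and 565 with the control virus (-0.17), the lowest difference of the 27 genes and 464th from the bottom among all genes above the floor. Grik4 had 138 with the HMGN1 virus and 150 with the control virus (-0.11). The low-affinity subunits above the floor went the other way by less than the probe set SD. Grik2 had 1334 with the HMGN1 virus and 1289 with the control virus (0.049), and Grik3 had 1031 with the HMGN1 virus and 976 with the control virus (0.077). Grik1 was under the floor on both arrays (41.5 with the HMGN1 virus and 37.0 with the control virus). Whether the subunit types differ from each other could not be tested with 1 array per virus. The delta receptor gene Grid1, whose protein links synapses through extracellular partners, had 266 with the HMGN1 virus and 246 with the control virus (0.11), and Grid2ip had 102 with the HMGN1 virus and 105 with the control virus (-0.033).

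NMDA receptors need coincident glutamate and depolarisation, and their Grin2 subunits set channel kinetics. Grin2b, the Grin2 subunit of the embryonic forebrain, had 276 with the HMGN1 virus and 230 with the control virus, 1.19-fold (0.25), rank 185 from the top. Grin2a, which takes over from Grin2b as the forebrain matures, was under the floor at 57.7 with the HMGN1 virus and 44.0 with the control virus. Its difference of 0.30 was the largest among the 20 genes under the floor, beside an SD of 0.155 over the probe sets for olfactory receptors. Grin2c, which is typical of the cerebellum, lay close to the floor at 83.5 with the HMGN1 virus and 92.5 with the control virus (-0.12). Grin2d was under it at 49.8 with the HMGN1 virus and 55.0 with the control virus. Of the glycine-binding Grin3 subunits, Grin3a had 297 with the HMGN1 virus and 286 with the control virus (0.050), and Grin3b was under the floor (59.6 with the HMGN1 virus and 52.0 with the control virus). Grin2b was thus the single NMDA receptor gene above the floor past the smaller size of 0.20.

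Among the metabotropic glutamate receptors, Grm2, an inhibitory autoreceptor gene of excitatory neurons, had 126 with the HMGN1 virus and 106 with the control virus (0.22). Grm3, its close relative found on glia, had 177 with the HMGN1 virus and 179 with the control virus (-0.015). Grm5, the phospholipase C-coupled receptor of precursors and astrocytes, had 222 with the HMGN1 virus and 232 with the control virus (-0.059). Neither Grm3 nor Grm5 exceeded the probe set SD. Grm4 held the same value in both columns (90.1), just above the floor. Grm6, a gene of retinal ON bipolar cells, Grm7 and Grm8 were under it, at means between 41.7 and 71.2.

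**Figure D2:**
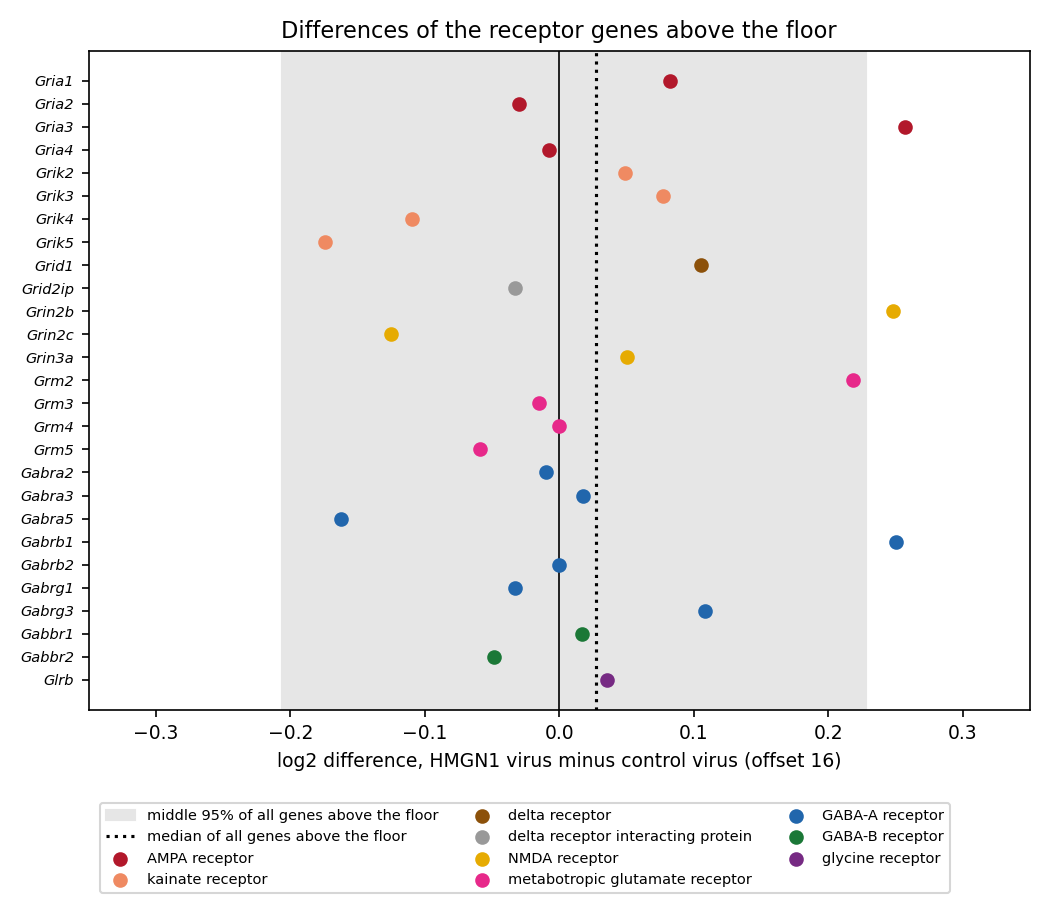
Log2 difference (HMGN1 virus minus control virus, offset 16) of the 27 genes above the floor, coloured by class, with the middle 95% of all genes above the floor shaded (-0.21 to 0.23) and their median dotted (0.027). Gria3, Grin2b and Gabrb1 lie right of the shaded range, and Grik5 and Gabra5 are the lowest.

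GABA-A receptors combine alpha, beta and other subunits, and the alpha subunit shapes affinity and drug binding. Gabra5, an alpha subunit of extrasynaptic receptors, had 138 with the HMGN1 virus and 156 with the control virus (-0.16). Gabra2, an alpha subunit of the developing forebrain, had 164 with the HMGN1 virus and 165 with the control virus (-0.0099). Gabra3, likewise used early, had 118 with the HMGN1 virus and 116 with the control virus (0.018). Gabra5 alone of these exceeded the probe set SD. Gabra4 (72.2 with the HMGN1 virus and 69.1 with the control virus) and Gabra6, the alpha subunit of cerebellar granule cells (23.1 with the HMGN1 virus and 21.7 with the control virus), were under the floor.

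Of the beta subunits, Gabrb1 had 96.6 with the HMGN1 virus and 78.6 with the control virus (0.25). Its mean of 87.6 was the closest to the floor from above, and its control virus value lay under the floor, so it counted as detected through the array where it was higher. Gabrb2 is the one gene here with 3 probe sets, and they disagreed. The brightest held the same value, 156, in both columns. Another had 137 with the HMGN1 virus and 141 with the control virus (-0.036), and the dimmest had 125 with the HMGN1 virus and 94.8 with the control virus (0.35). The spread across these 3 covers the whole range of the 27 genes on the positive side. Among the gamma subunits, Gabrg1 had 141 with the HMGN1 virus and 145 with the control virus (-0.033), and Gabrg3 had 109 with the HMGN1 virus and 100.04 with the control virus (0.11). The delta, epsilon, pi and theta subunit genes Gabrd, Gabre, Gabrp and Gabrq were under the floor, and so were the retinal rho subunits Gabrr1, Gabrr2 and Gabrr3. Gabrq had 50.2 with the HMGN1 virus and 62.7 with the control virus (-0.25), and Gabrr2, at a mean of 77.7, was the gene closest to the floor from below.

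The GABA-B receptor is an obligate pair of Gabbr1, which binds GABA, and Gabbr2, which couples to the G protein. Gabbr1 had 926 with the HMGN1 virus and 915 with the control virus (0.017), and Gabbr2 had 287 with the HMGN1 virus and 298 with the control virus (-0.049). Both differences were smaller than the probe set SD. Glycine receptors join ligand-binding alpha subunits with the beta subunit Glrb, which anchors them to gephyrin. Glrb had 403 with the HMGN1 virus and 393 with the control virus (0.036), whereas Glra1, Glra2, Glra3 and Glra4 were under the floor, at means between 18.1 and 51.5. Across all 20 genes under the floor, means ran from 18.1 to 77.7, 10 were higher, 9 lower and 1 equal, beside 40.9% higher and 55.2% lower among all genes under the floor.

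Scatter grows as signal falls, so each difference was also set beside genes of like intensity. Of the 27 genes, 4 lay outside the middle 95% of their own intensity range, against 5.03% of all genes above the floor by construction. Gria3 and Grin2b lay above an upper limit of 0.241 (genes between 150 and 300), and Gabrb1 lay above one of 0.245 (genes from the floor to 150). Grik5 lay under a lower limit of -0.166 (genes from 300 up). All 4 were within 0.02 of these limits, and Grm2 was inside. Without Gabrb1 and Grin2c, each of which was under the floor on 1 array, 3 of 25 lay outside.

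Receptor genes are long, and on these arrays long genes tended to be higher with the HMGN1 virus. Gene span, from annotated start to end with introns (RefSeq, GRCm38.p6), had a median of 224 kb for the 27 genes, against 23.9 kb for all genes above the floor. Difference and span correlated with a Spearman's rho of 0.23 over 10883 protein-coding genes and 0.34 over the 27, in both cases over genes that share the same 2 arrays and are not replicates. Among 248 protein-coding genes of at least 400 kb the median difference was 0.069 and 75.0% were higher. The 7 receptor genes of that length had a median of 0.11 and 5 of them were higher, led by Gabrb1 and Grin2b, and without Gabrb1 the median was 0.077 with 4 of 6 higher. In every range under 400 kb the receptor genes had a lower median than protein-coding genes of their length. From 50 to 100 kb their median was -0.017 against 0.049, with 1 of 4 higher against 70.6%, and from 100 to 200 kb it was -0.020 against 0.058, with 1 of 4 higher against 72.9%. Under 50 kb it was -0.0079 against 0.018, with 2 of 4 higher against 56.8%, and from 200 to 400 kb it was 0.0090 against 0.045, with 4 of 8 higher against 68.4%. With so few genes in a range, these medians are descriptions. With the trend of difference on span taken out, Grm2 was highest of the 27 at 0.21, followed by Gria3 at 0.20, Gabrb1 and Grin2b at 0.19 each, with Gabra5 at -0.21 and Grik5 at -0.22. The part of gene span in these differences was not otherwise tested.

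**Figure D3:**
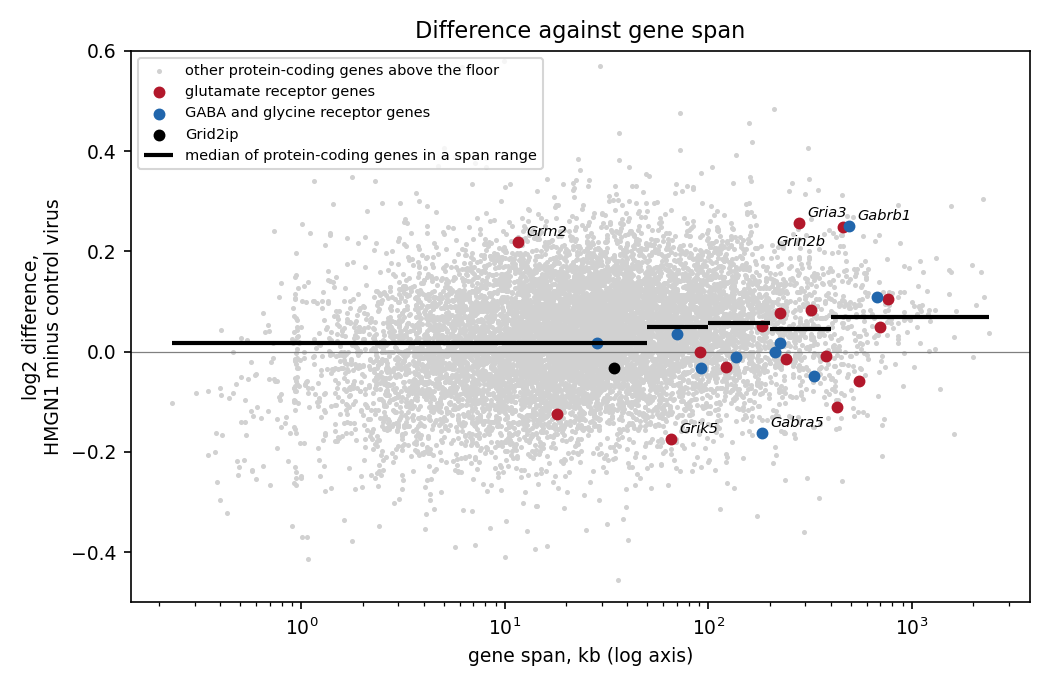
Log2 difference (HMGN1 virus minus control virus) against gene span in kb (log axis) for the 27 receptor genes above the floor (red, glutamate; blue, GABA and glycine; black, Grid2ip) and other protein-coding genes above the floor (grey), with black bars for the median of protein-coding genes in 5 ranges of span. Gria3, Grin2b and Gabrb1 lie far above the bar of their range, and Grik5 and Gabra5 below theirs.

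Genes that act beside the receptors were described from 5 lists, to be read beside all genes above the floor, of which 60.1% were higher with a median of 0.027. In the list of AMPA and kainate auxiliary subunits, 23 of 25 genes were above the floor, 14 higher (60.9%) and 9 lower (median 0.022). Shisa7 (224 with the HMGN1 virus and 200.5 with the control virus, 0.15) and the AMPA receptor partner Gsg1l (0.13) were highest, and Sez6 (614 with the HMGN1 virus and 713 with the control virus, -0.21) and the assembly factor Porcn (-0.13) were lowest. Excitatory scaffold genes had 18 higher (69.2%) and 8 lower of 26 (median 0.036). The synaptic adhesion gene Lrrtm3 (260 with the HMGN1 virus and 212 with the control virus, 0.28) and the scaffold Shank3 (0.21) led it, and Dlgap3 (-0.14) and Shank2 (-0.13) closed it. Inhibitory postsynaptic and GABA-B auxiliary genes had 11 higher (64.7%) and 6 lower of 17 (median 0.078), from Ajap1 (0.21) and the transport adaptor Trak2 (0.20) to Lhfpl4, a GABA-A receptor partner (-0.13), and Kctd12, a GABA-B auxiliary subunit (-0.18). None of these 3 lists held a gene past a log2 difference of 0.32, a size that few genes of the whole table passed (0.512% upward and 0.521% downward).

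Of 13 genes of glutamate synthesis and transport above the floor, 12 were higher (92.3%, beside 60.1% of all genes above the floor), with a median of 0.077 beside 0.027. The list includes Slc1a2 and Slc1a3, which are also astrocyte markers, and without Slc17a7 and Slc7a11, each under the floor on 1 array, 10 of 11 were higher. The neuronal transporter Slc1a1 had 460 with the HMGN1 virus and 363 with the control virus (0.33), the single gene of the 5 lists past 0.32, followed by the vesicular transporter Slc17a7 (94.0 with the HMGN1 virus and 80.2 with the control virus, 0.19), which reached the floor on its mean through the HMGN1 virus array. Slc17a6, the other vesicular transporter above the floor, was alone in being lower (90.4 with the HMGN1 virus and 100.1 with the control virus, -0.13), and the enzyme Glud1 came next (0.043). Of 11 genes for GABA and glycine synthesis, transport and chloride balance, 10 were higher (90.9%, median 0.11), and 8 after centring. Centring by construction splits all genes above the floor about evenly. Slc12a2, which loads immature cells with chloride, had 485 with the HMGN1 virus and 411 with the control virus (0.23), and the GABA-synthesising enzyme Gad2 had 915 with the HMGN1 virus and 788 with the control virus (0.21). The vesicular GABA transporter Slc32a1 had 102 with the HMGN1 virus and 106 with the control virus (-0.054), and Shmt2 was at 0.0069. The difference between these lists and the receptors was not tested.

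Markers of cell types were read beside these values, and their counts stand beside 60.1% higher and a median of 0.027 over all genes above the floor. Astrocyte markers summed to 7620 with the HMGN1 virus and 6992 with the control virus over 10 genes, 8 of 9 above the floor being higher, from Gfap (0.58) and Aqp4 (0.32) to Aldh1l1 (0.044) and Aldoc (-0.072). Oligodendrocyte lineage markers summed to 7914 with the HMGN1 virus and 7534 with the control virus over 11 genes, 8 of 11 being higher, from Enpp6 (0.46) and Gpr17 (0.33) to Cspg4 (-0.059) and Olig2 (-0.16). Neuron markers summed to 12318 with the HMGN1 virus and 11916 with the control virus over 14 genes, 8 of 13 being higher, from Syt1 (0.27) and Stmn2 (0.22) to Rbfox3 (-0.15) and Tubb3 (-0.17). Neural precursor markers summed to 24529 with the HMGN1 virus and 24746 with the control virus, 4 of 10 being higher, from Pax6 (0.11) and Hes1 (0.019) to Prom1 (-0.24) and Sox1 (-0.35). Microglia markers summed to 431 with the HMGN1 virus and 432 with the control virus, and endothelial, pericyte and red cell markers to 586 with the HMGN1 virus and 622 with the control virus. Under the floor were 7 of 8 microglia markers and 6 of 8 endothelial, pericyte and red cell markers, so these sums come in large part from undetected genes. Every sum is weighted towards its brightest probe sets. No marker had an intensity of 0 on either array, but no probe set of the whole table did either (lowest 3.08). That does not bear on which cell types were present. The part of cell makeup in the receptor values was not tested.

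**Figure D4:**
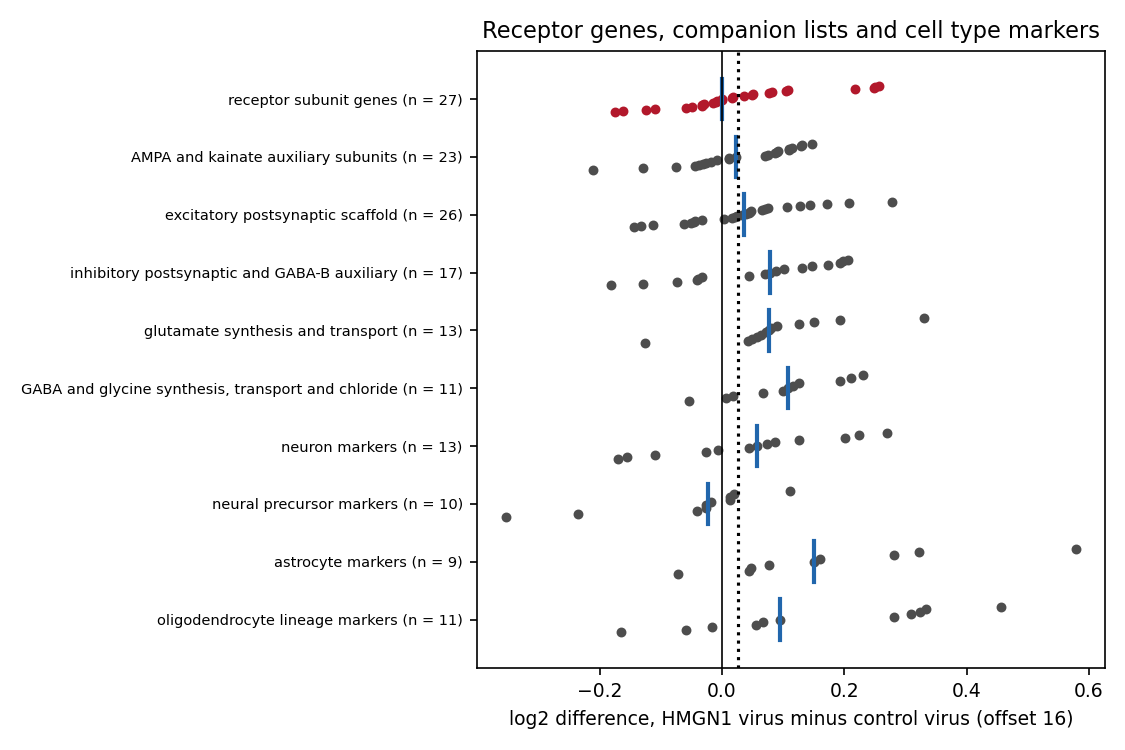
Log2 difference (HMGN1 virus minus control virus) of each gene above the floor (points) in the receptor set (red), the 5 companion lists and 4 cell type marker lists (grey), with the list median as a blue bar, 0 as a solid line and the median of all genes above the floor (0.027) dotted. The receptor genes have a median of 0 and a mean of 0.026. The transmitter synthesis and transport lists lie to the right with medians of 0.077 and 0.11.

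Promoter composition was set beside detection in this family. The ratio of observed to expected CpG in the 250 bases before the RefSeq start (mean over a gene's starts) had a median of 0.558 in 20 receptor genes above the floor and 0.311 in 16 under it, against 0.735 in 9061 genes above the floor and 0.260 in 6502 genes under it in the whole table. The 2 sets of receptor genes overlapped widely, from 0 to 1.21 above the floor and from 0.0665 to 0.765 under it. The windows of 3 genes are printed as examples, with every CpG in capitals. Their ratios are 0.817 (Grik2), 0.198 (Gabra6) and 0 (Gabra3), so they do not reach the top of the range above the floor or either end under it. Grik2 (above the floor, chr10:49788755-49789004, minus strand) holds 20 CpGs and Gabra6 (under the floor, chr11:42321073-42321322, minus strand) holds 2. Gabra3 (above the floor, chrX:72656920-72657169, minus strand) holds 0, so a CpG-poor window is also found in a detected gene. Sequences are RefSeq's, GRCm38.p6.
Grik2: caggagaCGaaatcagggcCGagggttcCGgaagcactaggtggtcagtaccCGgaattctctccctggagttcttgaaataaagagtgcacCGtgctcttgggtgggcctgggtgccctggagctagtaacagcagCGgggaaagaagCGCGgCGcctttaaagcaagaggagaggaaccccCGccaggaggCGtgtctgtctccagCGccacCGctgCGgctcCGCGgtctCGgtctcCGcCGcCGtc
Gabra6: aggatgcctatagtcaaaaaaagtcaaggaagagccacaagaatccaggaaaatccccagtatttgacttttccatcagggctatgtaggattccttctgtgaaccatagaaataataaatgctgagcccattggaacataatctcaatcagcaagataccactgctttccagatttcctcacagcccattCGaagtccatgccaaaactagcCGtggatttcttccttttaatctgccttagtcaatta
Gabra3: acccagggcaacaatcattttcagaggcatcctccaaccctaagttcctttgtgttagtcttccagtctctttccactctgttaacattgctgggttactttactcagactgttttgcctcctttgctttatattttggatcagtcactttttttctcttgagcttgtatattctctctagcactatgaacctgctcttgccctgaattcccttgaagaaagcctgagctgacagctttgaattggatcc

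**Figure D5:**
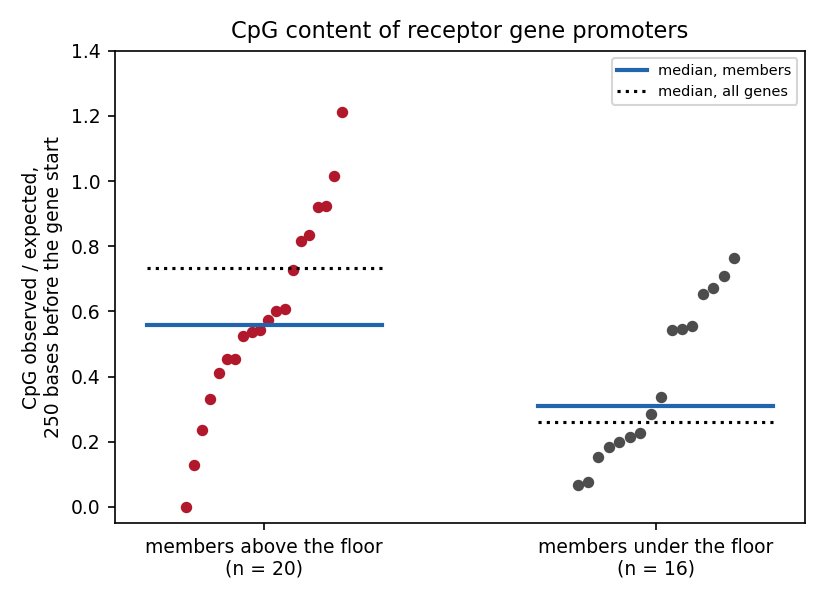
Observed over expected CpG in the 250 bases before the gene start for the receptor genes with a RefSeq window, 20 above and 16 under the detection floor (points, sorted within each set), with the median of each set as a blue line and that of all genes as a dotted line. The medians are 0.558 above and 0.311 under the floor, and the sets overlap.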

How the data were processed

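The series holds RNA from 2 cultures, 1 array each (HMGN1 virus, control virus), labelled with biotin by a whole-transcript kit, per the labels' protocols. The deposited values are linear probe set intensities; the authors' background correction, normalization and summary of probes are not stated in the labels, and they were used as deposited. Intensities ran from 3.56 to 18892 (HMGN1 virus) and from 3.08 to 18209 (control virus), with medians of 98.8 (HMGN1 virus) and 101 (control virus). The number of arrays limits the precision. Of 28944 probe sets, 21789 had 1 symbol in GEO's platform annotation, 1621 had several (0 of them naming a receptor gene) and 5534 were unnamed here. Each gene was read from the probe set with its highest mean. Both columns were equal for 749 probe sets (2.59%), among them those of Gabrb2, Grm4 and Grm8. Fixed log2 sizes of 0.32 and 0.20 stand in for a test. Members, lists, sizes and alternatives were chosen with earlier results of these data known. Text names every receptor gene above the floor, Hmgn1 and the 2 highest and 2 lowest of each list. Alternatives were quantile normalization, centring, removal of the trend with intensity or gene span, offsets of 1 and 64, the mean of probe sets, other floors and other sizes. Code was tested on simulated data. Python 3.11.15, pandas 2.3.3, scipy 1.17.1 and statsmodels 0.14.6 (lowess, span 0.3) were used.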

Additional observations from a re-analysis of the deposited data

Results flagged for a closer look

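A probe set of Gabrb2 (10375259) that was not used for the gene's value, because another was brighter, had 125 with the HMGN1 virus and 94.8 with the control virus, a log2 difference of 0.3479. It is named because this signal lies outside the values compared above and exceeds its control by more than 0.32 on the log2 scale, which none of the 27 receptor genes above the floor did on its brightest probe set. The other probe sets of the gene gave 0 and -0.036, so the gene as a whole has no settled direction.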

How the results depend on the processing

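No paired analysis was possible because a single array stands for each virus, and for the same reason no replicate could be left out. The count of receptor genes past a log2 difference of 0.32 upward, 0, became 4 at a size of 0.20 and stayed 0 at 0.58 and under each other setting run; the count past it downward was 0 throughout. The count above the floor, 27, was 20 with a stricter floor (the 99th percentile of olfactory receptors, an intensity of 120), 25 when both arrays had to reach the floor and 27 when probe sets naming several genes were allowed. The median of the receptor genes, 0, ran from -0.052 (gene span trend removed) to 0.026 (mean in place of median). The mean over all genes above the floor was 0.023. The NMDA receptor median of 0.050 was 0.15 with the stricter floor, which by construction leaves Grin2b and Grin3a. Counts of receptor genes by direction and at the smaller size were added after seeing the data. The 13 higher and 12 lower became 8 and 19 with the gene span trend removed, 11 and 16 after centring, and 23 and 21 of 47 with no floor. The no-floor counts mix 2 backgrounds. Of all genes above the floor 60.1% were higher and 38.4% lower, and of those under it 40.9% and 55.2%. Centring by construction splits all genes above the floor about evenly. The gene span trend was fitted to these same genes, so its removal also centres them near 0 by construction. Their shares were not counted with that trend removed. The 4 past 0.20 upward became 2 with the gene span trend removed, 2 with an offset of 64, 2 with the stricter floor, and 3 without the genes under the floor on 1 array. That count was also 3 after centring and 5 of 47 with no floor. The 0 past it downward became 2 with the gene span trend removed and 1 each with the intensity trend removed and with no floor. The shares of all genes past 0.20 were not counted under any of these settings. Changes of floor act through which genes enter, and the other settings change the differences themselves. Centring took Grm2 from 0.22 to 0.19, and an offset of 64 took Gabrb1 to 0.17 and Grm2 to 0.16. Why the differences hold trends with intensity and gene span was not tested. Of 189 values of single genes under 7 settings, 1 shifted by over the probe set SD, Gabrb2 at 0.10 as the mean of its 3 probe sets, and 9 values of 5 genes changed sign (Gabbr1, Gabra3, Glrb, Grik2 and Grin3a, reported above at 0.017 to 0.050). Gria3 ran from 0.20 to 0.27, Grin2b from 0.19 to 0.26, Gabrb1 from 0.17 to 0.29, Grm2 from 0.16 to 0.25, Gabra5 from -0.21 to -0.13 and Grik5 from -0.22 to -0.16. Centring shifted every gene by 0.027 and turned the median of the auxiliary subunits to -0.0047. Class medians this close to 0 changed sign under at least 1 setting for the AMPA, kainate, NMDA, metabotropic and glycine classes. Low signal limits genes near the floor, Gabrb1, Grin2c and Grm4 among them.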

Other observations

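Many receptor genes lie next to each other in the genome. By the order of protein-coding genes in RefSeq (GRCm38.p6), 17 of the 47 genes fall into 7 runs with at most 2 coding genes between members. In 2 runs all members went the same way: Glra1 (0.20, under the floor) and Gria1 (0.083) on chromosome 11, and Gabrr2 (-0.100) and Gabrr1 (-0.075), both under the floor, on chromosome 4. In the other runs members did not all share a direction. On chromosome 5, Gabrb1 differed by 0.25 while Gabra2 (-0.0099) and Gabrg1 (-0.033) were near 0 and Gabra4 was under the floor. The control virus value of Gabrb1 was also under the floor. On chromosome 7, Gabrg3 was at 0.11 and the adjacent Gabra5 at -0.16. On chromosome 3, Gria2 (-0.030) and Glrb (0.036) are adjacent and both were above the floor, with differences inside the probe set SD, and Glrb changed sign under 2 settings. Also on chromosome 11, Gabrb2 was above the floor and the adjacent Gabra6 under it, with 156 and 23.1 as their HMGN1 virus intensities. On the X chromosome, Gabra3 was above the floor between Gabre and Gabrq, which were under it. These are values of single probe sets on 1 array per virus, and no relation between neighbours was tested.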
